A study of Mus musculus with 6 samples.

Results

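The genes described here are 10 transcription regulators that set whether an activated B cell follows the germinal centre program or becomes an antibody-secreting plasma cell: Bcl6, Bach2, Prdm1, Irf4, Irf8, Xbp1, Pax5, Mef2b, Mef2c and Pou2af1. They were chosen by symbol, by matching the Ensembl identifiers of the count table to GENCODE release M21. All 10 were found among the 54838 identifiers of the table, and all 10 passed the filter on low counts among the 15136 genes tested. The samples were cultured mouse splenic B cells. Cells of the Cpd10 group received 1 µM Cpd10, which the labels call an inhibitor of the transcription factor FOXO1, from day 3 to day 5 of culture, and cells of the DMSO group received the solvent over the same 48 hours. All cultures began as naive B cells sorted from 10 male mice, 3 months old, that had been immunised with sheep red blood cells 9 days before. The sorted cells came from 2 experiments and were pooled before culture, and all cultures were activated with interleukin 4 at 80 ng/ml and anti-CD40 at 5 µg/ml, in an embryonic stem cell medium. Each group had 3 libraries, lettered A to C, and the labels do not say whether the letters stand for separate cultures, so the p-values reflect how far these particular libraries vary, and that variation may be technical. The labels name no genotype or strain. The comparison asks which transcripts differ when FOXO1 is inhibited in activated B cells, in a series on germinal centre B cells. The cells had been sorted as naive and activated in a dish, so no sample was a germinal centre B cell taken from an animal.

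In a germinal centre, the repressor BCL6 keeps B cells dividing and mutating their antibody genes, with BACH2, IRF8, PAX5 and the MEF2 factors holding the B cell state. BLIMP1, encoded by Prdm1, shuts that state down and is opposed by BCL6, BACH2 and PAX5, while a high dose of IRF4 favours plasma cells and XBP1 builds the secretory apparatus they need. FOXO1 is a factor of the germinal centre dark zone that is held out of the nucleus by PI3K and AKT signalling.

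Promoter windows of RefSeq (GRCm38.p6, 250 bases before to 50 bases after a start site) were found for all 10 genes, 14 windows in all. They were searched on both strands for 5 short motifs chosen with these sequences in view. The FOXO element GTAAACA was in 1 of the 14 windows, that of Prdm1, and in 3.65% of all 32851 windows of this length. The octamer ATGCAAAT, read by the OCT factors that the product of Pou2af1 binds, was in the window of Mef2b alone and in 1.74% of all windows. The GAS-type element TTCNNNGAA, the general form read by STAT factors and BCL6, was in 5 windows of 4 genes (Bcl6, Bach2, Irf8 and Mef2c) and in 8.3% of all. The ETS-IRF composite element was in 2 windows (2.72% of all) and the AP-1-like element TGANTCA in 2 (7.81% of all). A match describes these letters and shows no binding. Shown here, 5′ to 3′ in the direction of the gene, are the windows of Prdm1, which holds the FOXO element, and of Irf4 and Irf8, the pair that passed once the library set was in the fit. Capitals mark a match to any of the 5 motifs. The Prdm1 window is chr10:44458699-44458998 on the minus strand, with GTAAACA first and TGAATCA after it, 231 and 48 bases before the start site. The Irf4 window is chr13:30748983-30749282 and holds none of the 5 motifs. The first of the 2 Irf8 windows is chr8:120736108-120736407, with 2 GAS-type matches. Both lie on the plus strand.
Prdm1: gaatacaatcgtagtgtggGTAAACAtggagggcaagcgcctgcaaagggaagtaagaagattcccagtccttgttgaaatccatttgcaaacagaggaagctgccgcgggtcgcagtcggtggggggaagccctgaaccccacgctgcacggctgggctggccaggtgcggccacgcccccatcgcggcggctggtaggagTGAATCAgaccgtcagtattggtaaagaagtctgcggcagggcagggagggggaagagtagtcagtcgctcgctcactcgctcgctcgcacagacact
Irf4: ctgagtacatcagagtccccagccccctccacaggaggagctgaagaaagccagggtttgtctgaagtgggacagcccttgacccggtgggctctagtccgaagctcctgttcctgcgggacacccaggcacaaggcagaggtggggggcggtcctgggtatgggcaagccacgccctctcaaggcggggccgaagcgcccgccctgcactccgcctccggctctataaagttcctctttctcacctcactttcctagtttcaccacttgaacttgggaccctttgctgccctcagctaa
Irf8: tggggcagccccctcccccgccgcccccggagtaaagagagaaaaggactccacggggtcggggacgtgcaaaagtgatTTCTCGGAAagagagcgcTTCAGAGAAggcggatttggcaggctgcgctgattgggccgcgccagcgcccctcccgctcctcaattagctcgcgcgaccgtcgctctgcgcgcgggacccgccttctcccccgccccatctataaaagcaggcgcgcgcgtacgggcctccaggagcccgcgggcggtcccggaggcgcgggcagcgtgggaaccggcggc

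Libraries held 38110927 to 44859930 counts in Cpd10 and 36873204 to 42798114 in DMSO. They fell into 2 sets that cut across the treatment: Cpd10 A, DMSO A and DMSO C (set 1), and Cpd10 B, Cpd10 C and DMSO B (set 2). The sets are read from the counts and are not in the labels. Results are therefore given without the set and then with it as a term in the fit, which is exploratory. Levels in CPM are counts scaled by normalised library size. The 8 B cell markers summed to 12173 to 14978 CPM in Cpd10 and 14481 to 16643 CPM in DMSO. Of their log2 fold changes 3 were above 0 and 5 below (median -0.081), and 0 of 8 passed in either fit. The groups did not overlap for 1 of the 8. This was Cd74, at 6330 to 7592 CPM in Cpd10 and 7714 to 9079 CPM in DMSO. Cd79a, a B cell receptor subunit, was at 598 to 829 CPM in Cpd10 and 642 to 815 CPM in DMSO. Cd3d, Cd3e and Cd3g of T cells did not exceed 0.385 CPM in any library. The 9 T cell markers summed to 181 to 283 CPM in Cpd10 and 227 to 449 CPM in DMSO. Nearly all of that was Thy1, at 172 to 269 CPM in Cpd10 and 217 to 425 CPM in DMSO (log2 fold change -0.74, edgeR adjusted p = 0.538; in the fit with the set -0.46, p 0.0167). Eomes, listed as a natural killer cell marker, was at 0.213 to 0.431 CPM in Cpd10 and 1.79 to 2.21 CPM in DMSO. Pecam1, listed as an endothelial marker, was at 4.10 to 5.83 CPM in Cpd10 and 10.2 to 19.5 CPM in DMSO. Both were low and lower in Cpd10, called with the set term and by DESeq2 but not by edgeR with the group alone. Hbb-bt of erythroid cells, also low, went the other way, at 2.18 to 3.02 CPM in Cpd10 and 0.220 CPM or less in DMSO. Its log2 fold change was 4.23 (edgeR adjusted p = 0.126, 0.00687 with the set term, and 1.19e-07 by DESeq2). The part of these markers in the results was not tested.

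Per exon length, Pou2af1 and Xbp1 were the most abundant of the 10 regulators, and Bcl6, Prdm1 and Bach2 the least. Levels here are TPM, counts divided by exon length and scaled to the same sum in every library. Pou2af1, the gene of the coactivator OCA-B, was at 2171 to 2608 TPM in Cpd10 and 1916 to 2422 TPM in DMSO. Xbp1 was at 1087 to 1292 TPM in Cpd10 and 944 to 1269 TPM in DMSO. These ranges lay apart from each other and above those of the other 8 genes. By exon union, Irf4 followed at 334 to 547 TPM in Cpd10 and 288 to 341 TPM in DMSO. Mef2c was at 204 to 248 TPM in Cpd10 and 159 to 225 TPM in DMSO, Irf8 at 139 to 156 TPM in Cpd10 and 175 to 232 TPM in DMSO, and Pax5 at 135 to 181 TPM in Cpd10 and 145 to 200 TPM in DMSO. The ranges of these 3 overlapped, so their order is not settled. Mef2b lay at 37.1 to 50.1 TPM in Cpd10 and 29.3 to 64.1 TPM in DMSO, apart from Bcl6 but overlapping with Prdm1. Bcl6 was at 13.5 to 27.6 TPM in Cpd10 and 14.6 to 25.9 TPM in DMSO, and its range overlapped that of Prdm1, at 10.1 to 19.1 TPM in Cpd10 and 15.5 to 36.1 TPM in DMSO. Bach2 closed the order at 3.45 to 13.9 TPM in Cpd10 and 4.24 to 12.2 TPM in DMSO, overlapping with Prdm1, and above Bcl6 in Cpd10 A (13.9 against 13.5 TPM). Compared within each library, Mef2b lay above Bcl6, Prdm1 and Bach2 in every one, and Prdm1 above Bach2 in every one. The place of Bcl6 beside Prdm1 and Bach2 is thus not settled. With the longest annotated transcript as the length, Mef2c, whose exon union is 15715 bases against 6277 for that transcript, stood above Irf4: Mef2c averaged 433 TPM in Cpd10 and 372 TPM in DMSO, and Irf4 335 TPM in Cpd10 and 257 TPM in DMSO. By that length Irf8 averaged 225 TPM in Cpd10 and 316 TPM in DMSO, above Irf4 in DMSO.

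**Figure D1:**
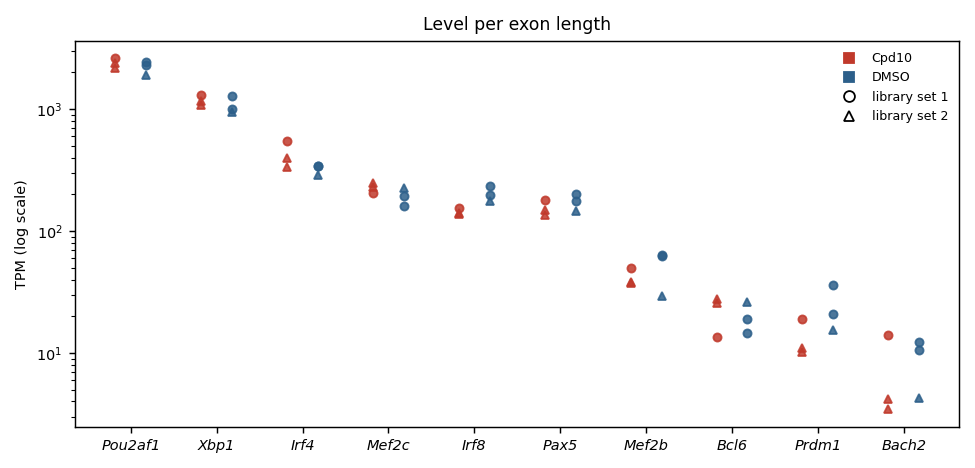
Level of each regulator per exon length in TPM, on a log axis, with 1 point per library, Cpd10 in red left of DMSO in blue, circles for library set 1 and triangles for set 2. Pou2af1 at 1916 to 2608 TPM and Bach2 at 3.45 to 13.9 TPM mark the 2 ends, and Bach2 separates by library set within each group.

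By edgeR's quasi-likelihood test over all 15136 genes, none of the 10 regulators passed a Benjamini-Hochberg adjusted p under 0.05, where 0.37% of all tested genes were called. At an unadjusted p under 0.05 there was 1 of 10 (Irf8), beside 8.39% of all tested genes. DESeq2 called 0 of 10, beside 1.42% of the genes it gave a p-value. Without the set, 0.317% of all tested genes were called higher in Cpd10 and 0.0529% lower. With the library set as a term, 2 of 10 were called (Irf4 higher, Irf8 lower), beside 3.96% of all tested genes (2.32% higher and 1.64% lower). The 3 libraries of one group lay apart from the 3 of the other for 1 of 10 (Irf8, lower), beside 14.6% of all tested genes (7.31% higher and 7.32% lower). The libraries of one set lay apart from those of the other for 6 of 10 (Bcl6, Bach2, Prdm1, Pax5, Mef2b and Mef2c), beside 35.9%. Of the 10 fitted differences, 5 were above 0 and 5 below, with a median log2 fold change of -0.026, beside -0.0012 for all tested genes.

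**Figure D2:**
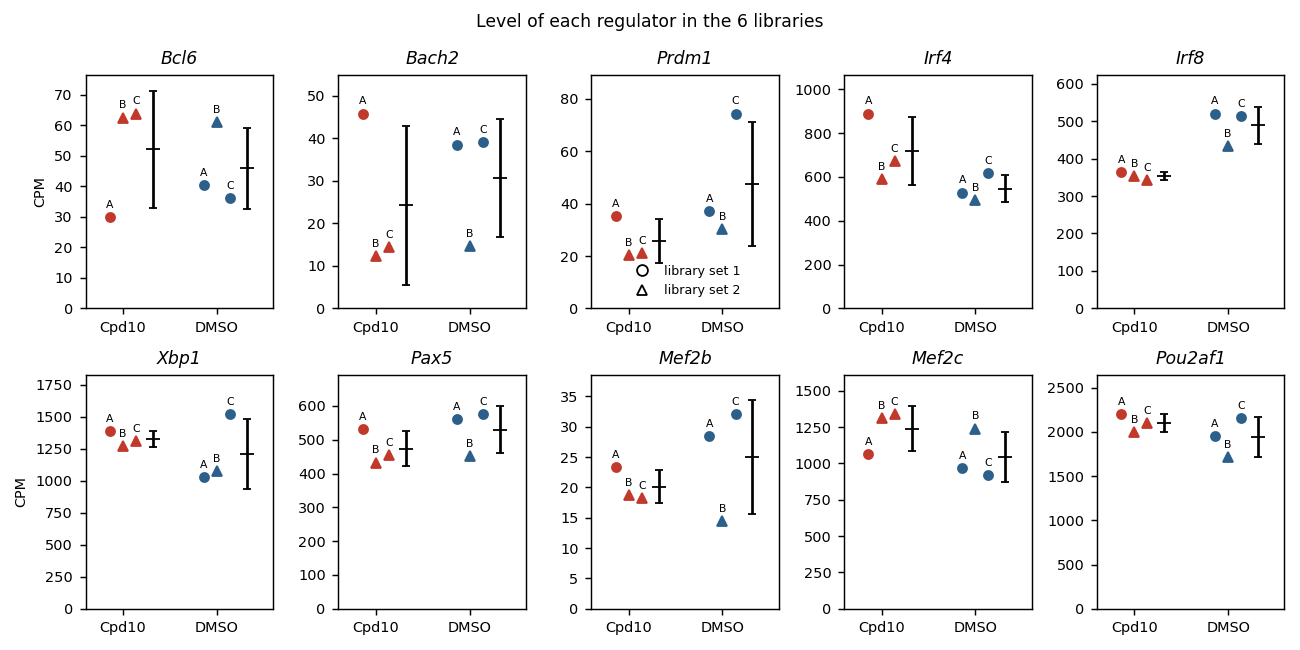
CPM of each of the 10 regulators in every library, Cpd10 left and DMSO right in each panel, letters naming the replicate, circles for library set 1, triangles for set 2 and bars for the mean and SD of 3 libraries. Irf8 is the panel where all Cpd10 points (343 to 364 CPM) lie below all DMSO points (433 to 520 CPM), and in the Bcl6 and Bach2 panels the points part by set.

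Irf8 and Irf4 passed the test once the library set was in the fit and not without it, Irf8 lower and Irf4 higher in Cpd10. Non-overlap of 1 member in 10 is near the share over all genes. Irf8 (ENSMUSG00000041515, GRCm38 chromosome 8, 120736358 to 120756694, plus strand) encodes a factor of germinal centre B cells that is also central to monocytes and dendritic cells. It was at 364, 354 and 343 CPM in Cpd10 A, B and C, against 520, 433 and 513 CPM in DMSO A, B and C. Every Cpd10 library lay below every DMSO library, and the Cpd10 values spread little. The means were 354 ± 10.7 CPM in Cpd10 and 488 ± 48.5 CPM in DMSO (SD, n = 3 each), a log2 fold change of -0.47 (SE 0.11, 95% interval -0.72 to -0.21, edgeR adjusted p = 0.208). With the set term it was -0.41 (SE 0.081, edgeR adjusted p = 0.0136), and that call was lost without Cpd10 A (adjusted p = 0.388) or Cpd10 C (0.0848). Within set 1 the difference of mean log2 CPM was -0.50, and within set 2 it was -0.31.

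Since other cell types express Irf8, their markers stand beside it. The 7 dendritic cell markers summed to 60.7 to 88.6 CPM in Cpd10 and 70.7 to 103 CPM in DMSO, of which Clec9a was at 0 in every library and Xcr1 at 0.266 CPM or less. Most of the sum was Zbtb46 (36.5 to 47.2 CPM in Cpd10, 35.2 to 44.4 CPM in DMSO), Batf3 (16.7 to 19.7 CPM in Cpd10, 16.1 to 20.9 CPM in DMSO) and Flt3 (3.68 to 23.8 CPM in Cpd10, 15.8 to 36.0 CPM in DMSO), none of which passed in either fit. The 8 macrophage and monocyte markers summed to 58.1 to 64.1 CPM in Cpd10 and 30.2 to 44.7 CPM in DMSO. Cd68, a lysosomal glycoprotein gene, rose, at 47.6 to 50.2 CPM in Cpd10 and 14.98 to 21.5 CPM in DMSO (log2 fold change 1.46, edgeR adjusted p = 0.0168). Adgre1, the gene of F4/80, went the other way, at 8.77 to 14.2 CPM in Cpd10 and 13.9 to 21.1 CPM in DMSO (-0.63, edgeR adjusted p = 0.529; in the fit with the set -0.80, p 0.0252), while Csf1r and Lyz2 did not exceed 0.248 CPM in any library. Their part in the Irf8 values was not tested. In bulk RNA, fewer cells of a type and less RNA per cell cannot be told apart.

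Irf4 (ENSMUSG00000021356, chromosome 13, 30749226 to 30766976, plus strand), the factor whose dose helps decide between the germinal centre and plasma cell fates, was at 889, 591 and 674 CPM in Cpd10 A, B and C, against 529, 495 and 617 CPM in DMSO A, B and C. The groups overlapped, because DMSO C lay above Cpd10 B. The means were 718 ± 154 CPM in Cpd10 and 547 ± 62.7 CPM in DMSO (SD, n = 3 each), a log2 fold change of 0.39 (SE 0.18, 95% interval -0.015 to 0.80, edgeR adjusted p = 0.619). With the set term it was 0.49 (SE 0.098, edgeR adjusted p = 0.0131), lost without Cpd10 A (adjusted p = 0.449) or Cpd10 C (0.086). The difference was 0.64 within set 1, where Cpd10 A was the highest of all 6 libraries, and 0.35 within set 2. The other 7 members of the IRF family gave no call with or without the set, and 0 of 7 had an unadjusted p under 0.05. The median log2 fold change of the 7 was -0.020, and Irf1, an interferon-induced activator, had the smallest p (-0.31, edgeR adjusted p = 0.669).

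The ratio of Irf4 to Irf8 separated the groups in all 6 libraries. On the log2 scale it was 1.29, 0.74 and 0.98 in Cpd10 A, B and C, against 0.024, 0.20 and 0.27 in DMSO A, B and C. The means were 1.001 ± 0.27 in Cpd10 and 0.16 ± 0.12 in DMSO (SD, n = 3 each), a difference of 0.84. The pair was set beside each other with its values known, so no test is given.

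**Figure D3:**
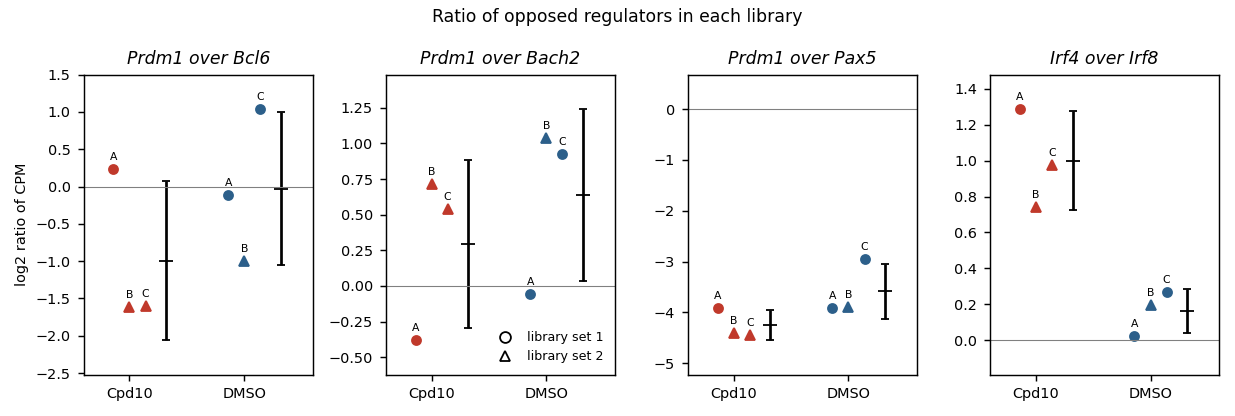
Log2 ratio of CPM for 4 pairs of opposed regulators in every library, Cpd10 left and DMSO right in each panel, circles for library set 1, triangles for set 2 and bars for the mean and SD of 3 libraries. In the Irf4 over Irf8 panel the Cpd10 points (0.74 to 1.29) lie above the DMSO points (0.024 to 0.27), and in the other 3 panels the groups overlap.

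Prdm1 averaged lower in Cpd10, by a margin that was smaller without DMSO C. Prdm1 (ENSMUSG00000038151, chromosome 10, 44437177 to 44528501, minus strand) was at 35.2, 20.4 and 21.02 CPM in Cpd10 A, B and C, against 37.2, 30.4 and 74.3 CPM in DMSO A, B and C. DMSO C stood far above the other 5 libraries, and Cpd10 A lay above DMSO B. The means were 25.6 ± 8.40 CPM in Cpd10 and 47.3 ± 23.7 CPM in DMSO (SD, n = 3 each). The log2 fold change was -0.89 (SE 0.38, 95% interval -1.79 to 0.013, edgeR adjusted p = 0.604) and -0.40 without DMSO C. With the set term it was -0.61 (adjusted p = 0.424), a value that passed without DMSO A (-0.78, edgeR adjusted p = 0.0013) and was -0.34 without DMSO C (adjusted p = 0.192). Within sets 1 and 2 the differences were -0.57 and -0.54.

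Jchain and Sdc1, genes of plasma cells, stood high in the same DMSO C library. Jchain, which joins antibody units into polymers, was at 732, 262 and 224 CPM in Cpd10 A, B and C, against 730, 407 and 2057 CPM in DMSO A, B and C. Sdc1, the plasma cell surface proteoglycan CD138, was at 37.7, 7.41 and 6.87 CPM in Cpd10 and 39.2, 10.7 and 87.7 CPM in DMSO. Both genes were highest in DMSO C, close to each other in Cpd10 A and DMSO A, and lowest in Cpd10 C. The 16 listed plasma cell genes summed to 2853 to 3041 CPM in Cpd10, against 3116, 3026 and 4868 CPM in DMSO A, B and C. Jchain made up 2057 CPM of the DMSO C sum. The listed genes did not all peak in DMSO C. Creld2, Derl3 and Fndc3b did, while Slamf7 and Tnfrsf13b were highest in DMSO A. Mzb1 was at 1001 CPM in DMSO C, against 1437 CPM in DMSO B and 1523 CPM in Cpd10 B. Slamf7, Tnfrsf13b and Mzb1 are named after their values were seen. Of 14 listed genes tested, 0 passed and 1 was under 0.05 before adjustment. Their median log2 fold change was -0.45, with 3 above 0 and 11 below, and -0.056 without DMSO C, with 7 above and 7 below. Those with the smallest p were Ly6c2 (-1.69, at under 2 CPM throughout), Creld2 (-0.34), Derl3, of the degradation pathway of the endoplasmic reticulum (-0.56), and Fndc3b (-0.68), with edgeR adjusted p from 0.51 to 0.714. How much of the Prdm1 difference follows these genes was not tested.

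Xbp1 did not differ detectably, while the genes listed as its targets all had fitted values below 0. Xbp1 (ENSMUSG00000020484, chromosome 11, 5520659 to 5525893, plus strand) was at 1391, 1275 and 1310 CPM in Cpd10 A, B and C, against 1027, 1075 and 1523 CPM in DMSO A, B and C. DMSO C was again the highest library and DMSO A the lowest, so the groups overlapped. The log2 fold change was 0.13 (SE 0.18, 95% interval -0.28 to 0.54, edgeR adjusted p = 0.91). With the set term it was 0.20 (adjusted p = 0.593). Leaving out 1 library as well gave 0.35 without DMSO C (adjusted p = 0.0274) and 0.10 to 0.28 without each of the other 5, none of which passed. Gene counts do not show splicing of the Xbp1 mRNA, on which the active factor depends.

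The list of XBP1 targets holds 18 genes linked to protein folding and transport in the endoplasmic reticulum. How far each depends on XBP1 in these cells was not tested. Of the 18, 18 had a log2 fold change below 0, beside 7594 of the 15136 genes tested. The 18 were measured in the same 6 libraries and are not independent, so no test of this count is given. Their median was -0.24, and 0 passed edgeR's test, with 3 at an unadjusted p under 0.05 and 0 by DESeq2. Sec24d, a coat protein of transport vesicles, was at 54.6, 51.8 and 53.5 CPM in Cpd10 and 68.3, 72.9 and 100.3 CPM in DMSO (log2 fold change -0.59, SE 0.15, edgeR adjusted p = 0.254). Herpud1, of the degradation pathway, was at 258, 257 and 245 CPM in Cpd10 and 349, 278 and 373 CPM in DMSO (-0.40, edgeR adjusted p = 0.403). Hspa5, the chaperone BiP, was at 1729, 1732 and 1607 CPM in Cpd10 and 1877, 2051 and 2148 CPM in DMSO (-0.26, adjusted p = 0.688). The groups did not overlap for these 3 genes of the 18, beside 14.6% of all tested genes. Dnajb9, a cochaperone, had -0.61 (edgeR adjusted p = 0.575) with overlapping groups. Summed over the 18 genes, the level was 9141, 8290 and 7991 CPM in Cpd10 A, B and C. It was 9149, 9298 and 11808 CPM in DMSO A, B and C, so Cpd10 A lay close to DMSO A. Without DMSO C the median was -0.095, with 16 of 18 below 0, and with the set term -0.18, with 17 of 18 below 0. Without Cpd10 A, 15 of 18 were below 0.

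**Figure D4:**
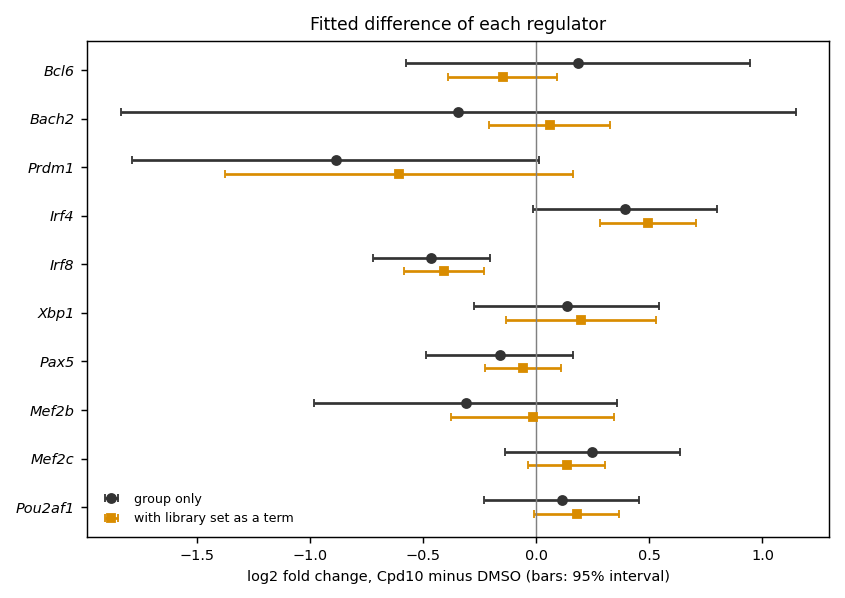
Fitted log2 fold change of each regulator, Cpd10 minus DMSO, with 95% intervals, in the fit with the group alone (black circles) and with the library set as a term (orange squares). The fitted value of Irf8 is below 0 and that of Irf4 above 0 in both fits. The Irf4 interval includes 0 with the group alone (-0.015 to 0.80) and excludes it with the set term (0.28 to 0.71). The wide intervals of Bach2 (-1.84 to 1.15) and Bcl6 (-0.58 to 0.95) narrow with the set term.

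Bcl6 and Bach2, the repressors that hold back Prdm1, parted by library set, and neither was called between Cpd10 and DMSO. Bcl6 (ENSMUSG00000022508, chromosome 16, 23965052 to 23988852, minus strand) was at 29.9, 62.5 and 63.8 CPM in Cpd10 A, B and C, against 40.4, 60.9 and 36.2 CPM in DMSO A, B and C. The 3 libraries of set 2 lay together at 60.9 to 63.8 CPM and the 3 of set 1 below them. The log2 fold change was 0.18 (SE 0.32, 95% interval -0.58 to 0.95, edgeR adjusted p = 0.93). Fitted with the set it turned to -0.15 (95% interval -0.39 to 0.091, adjusted p = 0.582).

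Bach2 (ENSMUSG00000040270, chromosome 4, 32238804 to 32586108, plus strand) ran the other way, at 45.9, 12.4 and 14.5 CPM in Cpd10 A, B and C, against 38.6, 14.8 and 39.1 CPM in DMSO A, B and C. Set 1 held the 3 high libraries and set 2 the 3 low ones, with 3.7 times between the highest and the lowest. The log2 fold change was -0.35 (SE 0.61, 95% interval -1.84 to 1.15, edgeR adjusted p = 0.931). It was 0.059 with the set term (95% interval -0.21 to 0.33, adjusted p = 0.88). A log2 difference of 1 in either direction lay within the interval without the set and outside it with the set. The antisense transcript Bach2os shares 537 bases, 5.4%, of the Bach2 exons, and the sources used here do not say whether counting used strand.

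Of 15 BCL6 corepressors, edgeR called 0, none was under 0.05 before adjustment, and the median log2 fold change was -0.0045. Rcor1, Ctbp1, Bcor and Tbl1xr1 had the smallest p, with log2 fold changes of -0.18, 0.18, -0.26 and -0.14 and edgeR adjusted p from 0.722 to 0.853. Around BACH2, 5 of 5 genes had log2 fold changes below 0 (median -0.44), beside 7594 of the 15136 genes tested, and 0 passed. Only 4 of 5 were below 0 without Cpd10 A (median -0.15), DMSO A (-0.37) or DMSO B (-0.29). All 5 stayed below 0 without DMSO C, Cpd10 B or Cpd10 C. Bach1, its paralogue and a repressor of haem-responsive genes, was at 17.2, 19.6 and 14.96 CPM in Cpd10 and 29.9, 24.8 and 33.5 CPM in DMSO. Its groups did not overlap (-0.77 on the log2 scale, SE 0.16, edgeR adjusted p = 0.133). It was called with the set term (-0.70, adjusted p = 0.0174) and by DESeq2 (adjusted p = 0.00909). Bach1 was the 1 gene of the 5 in either count. Over all tested genes, 7.32% lay lower without overlap and 1.64% were called lower with the set term. The shared BACH target Hmox1, which encodes haem oxygenase, had -0.44 (edgeR adjusted p = 0.855), and the small MAF partners Maff and Mafg had -0.93 and -0.21 (adjusted p = 0.613 and 0.688).

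The ratios of Prdm1 to its repressors overlapped between the groups. On the log2 scale, Prdm1 over Bcl6 was 0.24, -1.62 and -1.60 in Cpd10 A, B and C, against -0.12, -1.002 and 1.04 in DMSO A, B and C. Within set 2 both Cpd10 libraries lay below DMSO B, and within set 1 Cpd10 A lay between DMSO A and DMSO C. Prdm1 over Pax5 averaged -4.25 ± 0.29 in Cpd10 and -3.59 ± 0.55 in DMSO, and Prdm1 over Bach2 averaged 0.29 ± 0.59 in Cpd10 and 0.64 ± 0.60 in DMSO (SD, n = 3 each).

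Pax5 and Pou2af1, which maintain B cell identity and antibody gene transcription, varied little. Pax5 (ENSMUSG00000014030, chromosome 4, 44524757 to 44710487, minus strand) was at 532, 433 and 455 CPM in Cpd10 A, B and C, against 562, 451 and 577 CPM in DMSO A, B and C. It was higher in the 3 libraries of set 1 than in those of set 2. Its log2 fold change was -0.16 (SE 0.14, 95% interval -0.49 to 0.16, edgeR adjusted p = 0.85). On the other strand, Gm12462 and 5730488B01Rik share 1.41% and 7.18% of its exon bases. Pou2af1 (ENSMUSG00000032053, chromosome 9, 51213708 to 51240080, plus strand) was at 2204, 1998 and 2096 CPM in Cpd10 A, B and C, against 1958, 1711 and 2161 CPM in DMSO A, B and C. The groups overlapped, and it had the smallest variation of the 10 genes over the 6 libraries, a coefficient of 8.84%. Its log2 fold change was 0.11 (SE 0.15, 95% interval -0.23 to 0.45, edgeR adjusted p = 0.91). Its partners Pou2f2 and Pou2f1 had 0.24 and -0.14 (adjusted p = 0.881 and 0.913), and Pou2f3 was at 0 in every library.

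Among 14 genes known to be activated by PAX5, edgeR called 1 lower and 0 higher, and 13 did not pass. The median log2 fold change was -0.13. Over all tested genes 0.317% were called higher and 0.0529% lower. Ciita, the master activator of MHC class II genes, which BLIMP1 is known to repress, was at 144, 141 and 121 CPM in Cpd10, against 401, 265 and 450 CPM in DMSO (log2 fold change -1.46, SE 0.20, edgeR adjusted p = 0.0355). Its call was lost without DMSO A, DMSO C, Cpd10 A, Cpd10 B or Cpd10 C (log2 fold change -1.30 to -1.50, adjusted p = 0.0726 to 0.239) and in the fit with the replicate block (-1.43, adjusted p = 0.0641). It passed without DMSO B, without the filter (edgeR adjusted p = 0.00427), with the set term (6.62e-04) and by DESeq2 (1.54e-09). Cd72, an inhibitory coreceptor, was at 40.4, 59.3 and 53.2 CPM in Cpd10 and 108, 88.7 and 112 CPM in DMSO (-1.01, edgeR adjusted p = 0.0659). The kinase gene Blk had -0.62 (adjusted p = 0.0831) and Bcl11a -0.46 (adjusted p = 0.168). The groups did not overlap for 5 of the 14, all lower in Cpd10, beside 7.32% of all tested genes. With the set term 4 were called lower (Ciita, Cd72, Blk and Bcl11a), beside 1.64% of all tested genes. Cd79a, also activated by PAX5 and named after its values were seen, had -0.0090.

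Of 8 tested genes known or held to be repressed by PAX5, 0 passed and 8 had log2 fold changes below 0 (median -0.66). Without DMSO C the median was -0.35, with 6 of 8 below 0, and with the set term -0.40, with 7 of 8. Jchain and Sdc1, given above, are among them, with Ly6d (-0.89, edgeR adjusted p = 0.568; in the fit with the set -0.60, p 0.00166) and Hsd17b11 (-0.16, adjusted p = 0.824). Of 11 genes known to be repressed by BLIMP1, edgeR called 1 lower and 0 higher, and 10 did not pass, with a median of -0.16. The share called lower over all tested genes was 0.0529%. The called gene was again Ciita, whose call was lost in most fits without 1 library, as given above. Myc, the growth regulator, was at 157, 175 and 163 CPM in Cpd10 and 372, 178 and 250 CPM in DMSO (-0.69, edgeR adjusted p = 0.501), and Swap70 and Cd79b had -0.22 and 0.19.

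Mef2b and Mef2c, activators linked to Bcl6 and to B cell receptor signals, also parted by library set. Mef2b (ENSMUSG00000079033, chromosome 8, 70139711 to 70167488, plus strand) was at 23.3, 18.8 and 18.3 CPM in Cpd10 A, B and C, against 28.5, 14.4 and 32.1 CPM in DMSO A, B and C. DMSO held both the highest and the lowest library. The log2 fold change was -0.31 (SE 0.29, 95% interval -0.99 to 0.36, edgeR adjusted p = 0.859). It was -0.017 with the set term. It shares 62 exon bases, 4.42%, with Borcs8 on the same strand. Mef2c (ENSMUSG00000005583, chromosome 13, 83504034 to 83667080, plus strand) was at 1065, 1313 and 1341 CPM in Cpd10 A, B and C, against 970, 1240 and 922 CPM in DMSO A, B and C. Within each set Cpd10 was higher, by 0.17 in set 1 and 0.098 in set 2 on the log2 scale, and set 2 lay above set 1. The log2 fold change was 0.25 (SE 0.17, 95% interval -0.14 to 0.63, edgeR adjusted p = 0.782). Of 6 paralogues and class IIa deacetylases that restrain MEF2, 0 passed. Hdac7 was at 255, 273 and 257 CPM in Cpd10 and 208, 234 and 208 CPM in DMSO, without overlap (0.27, edgeR adjusted p = 0.46). Mef2a, Hdac9 and Mef2d had -0.28, 0.36 and -0.16 (adjusted p = 0.673, 0.70 and 0.71). The Mef2d groups did not overlap either, at 129 to 143 CPM in Cpd10 and 148 to 156 CPM in DMSO. Of the 6, 1 thus lay higher and 1 lower without overlap, beside 7.31% and 7.32% of all tested genes.

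The 14 genes listed as partners of IRF and BATF factors gave 0 calls by edgeR, with 3 at an unadjusted p under 0.05 and a median log2 fold change of -0.11. Jun, an AP-1 subunit, was at 86.2, 81.1 and 78.1 CPM in Cpd10 and 173, 111 and 124 CPM in DMSO (-0.73, SE 0.17, edgeR adjusted p = 0.167; in the fit with the set -0.63, p 0.0326). Ikzf3, the gene of AIOLOS, was at 217, 230 and 241 CPM in Cpd10 and 305, 277 and 340 CPM in DMSO (-0.42, edgeR adjusted p = 0.262; in the fit with the set -0.40, p 0.0341). Tcf12, an E protein gene, was the other way, at 180, 129 and 140 CPM in Cpd10 and 124, 115 and 121 CPM in DMSO (0.32, edgeR adjusted p = 0.583; in the fit with the set 0.39, p 0.0289). The groups did not overlap for these 3 genes of 14, beside 14.6% of all tested genes, and Batf, the partner of IRF4 at AP-1 composite sites, had 0.10 (edgeR adjusted p = 0.887). Batf was chosen after its value was seen.

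Of 14 tested germinal centre genes, edgeR called 0, and 2 were under 0.05 before adjustment, with a median log2 fold change of 0.090, 8 above 0 and 6 below. With the set term the median turned to -0.060, 6 above and 8 below. In that fit 2 were called higher (Ezh2 and Elk3) and 1 lower (Gcsam), beside 2.32% and 1.64% of all tested genes. Elk3, named after its values were seen, had 0.57 with the set term (edgeR adjusted p = 0.0219) and 0.33 without it (0.859). Without DMSO C, in the fit with the group alone, the median was -0.012. Ezh2, the histone methyltransferase that germinal centre B cells require, was at 423, 489 and 518 CPM in Cpd10 and 329, 309 and 246 CPM in DMSO (0.70, SE 0.14, edgeR adjusted p = 0.126; in the fit with the set 0.63, p 0.008). Gcsam, an adaptor, was low, at 0.859, 1.12 and 1.12 CPM in Cpd10 and 2.78, 3.14 and 4.38 CPM in DMSO (-1.73, edgeR adjusted p = 0.118; in the fit with the set -1.76, p 0.0182). DESeq2 called both, Ezh2 at an adjusted p of 0.00296 and Gcsam at 0.00101. S1pr2, a receptor that confines cells to the follicle, and Fas had 0.35 and 0.32 (adjusted p = 0.691 and 0.736). The groups did not overlap for Ezh2 and S1pr2, higher in Cpd10, and for Gcsam, lower. That is 2 higher and 1 lower of the 14, beside 7.31% and 7.32% of all tested genes.

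**Figure D5:**
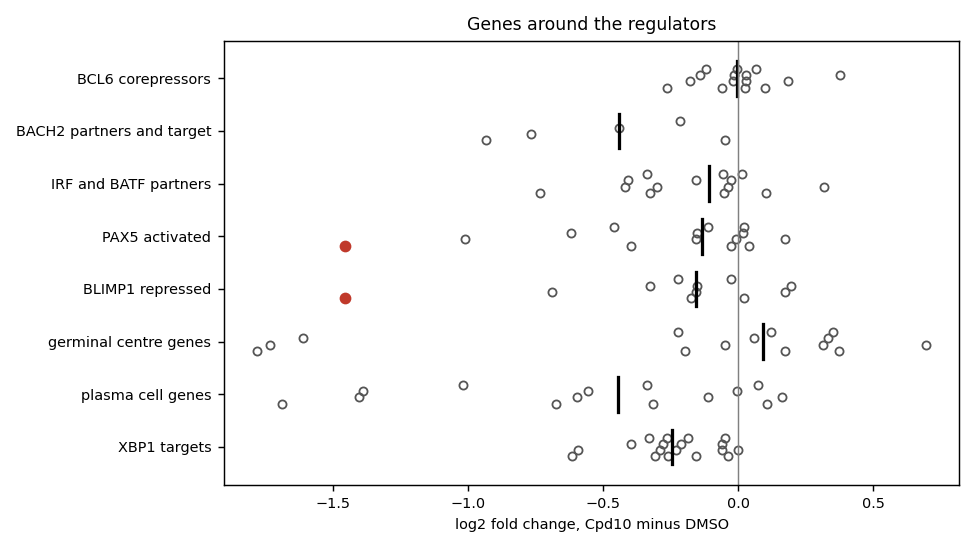
Log2 fold change, Cpd10 minus DMSO, of the tested genes of 8 lists around the regulators, with 1 circle per gene, a black bar for the list median and filled red for genes called by edgeR over all genes. Ciita (-1.46), which is in the PAX5 and BLIMP1 lists, is the only gene with filled points, and all 18 genes of the XBP1 list lie below 0.

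Upstream of the regulators, 0 of 18 signalling genes passed edgeR's test, with 3 at an unadjusted p under 0.05 and a median log2 fold change of -0.046 (0.048 with the set term). Stat5a and Stat5b, which transmit cytokine signals, had -0.54 and -0.26 (edgeR adjusted p = 0.265 and 0.483), with Stat5a at 197, 207 and 207 CPM in Cpd10 and 361, 259 and 268 CPM in DMSO. Foxo4, a paralogue of Foxo1, had 0.37 (adjusted p = 0.584). For these 3 genes the groups did not overlap. Over all 18, 3 lay higher in Cpd10 without overlap and 2 lower, beside 7.31% and 7.32% of all tested genes. Foxo1 itself, whose transcript an inhibitor of the protein need not change, was at 130, 115 and 111 CPM in Cpd10 and 137, 122 and 155 CPM in DMSO.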

How the data were processed

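RNA was poly A selected and sequenced from strand-marking libraries, per the labels' protocols. The authors deposited raw counts per gene for the 6 libraries. GRCm38, STAR (2.7.10a), DESeq2 and featureCounts (2.0.6) are named, with no role, in the submitters' processing notes. The sources used here do not give the strand setting. Of 54838 identifiers, 54809 were found in GENCODE M21 and 29 were not. At these depths the spread between libraries, more than counting error, limits precision.

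From the deposited counts, edgeR 4.0.16 (R 4.3.3) was run with TMM, filterByExpr, robust quasi-likelihood fits and the group as the only term. P-values were Benjamini-Hochberg adjusted over all 15136 genes, and SE is the log2 fold change over the square root of F. Within-set differences use log2(CPM + 0.5). TPM divide counts by the union of GENCODE exons. The library sets are the trios that part 9 genes, more than any other trios do, between at most 3 counts and at least 50. Replicates of a group differed beyond sampling noise (chi-square per degree of freedom 11.5 to 157). The procedure was tested on simulated data, and the outcome of that test is not reported here. Alternatives were DESeq2 1.42.0, RLE size factors, no filter, a replicate block, the set term and leaving out each library. The 10 genes, lists and tests were chosen with earlier results of these data known. Named beside the 10 are up to 4 genes with the smallest p of each list, called genes, and genes marked as chosen later. Some listed genes are counted but not reported here by name.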

Additional observations from a re-analysis of the deposited data

How the results depend on the processing

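No regulator was called by edgeR with RLE size factors, without the filter, with the replicate block, without any library, or by DESeq2; with the library set term 2 were called. Over all genes, 56 were called (48 higher, 8 lower in Cpd10), against 194 (124 and 70) without the filter, 599 (351 and 248) with the set term and 356 (205 and 151) by DESeq2. Leaving out 1 library gave 0 to 100 calls, 0 to 66 higher and 0 to 37 lower: 0 without Cpd10 C, 1 without Cpd10 B, 1 without DMSO C, 5 without DMSO A, 77 without Cpd10 A and 100 without DMSO B. The cause was not tested. All 10 regulators kept the sign of their fitted difference in each of these 6 fits, but the size moved: Bach2 ran from -0.029 without Cpd10 B to -1.19 without Cpd10 A, Bcl6 from 0.012 without Cpd10 C to 0.47 without Cpd10 A, and Prdm1 from -0.40 without DMSO C to -1.18 without Cpd10 A.

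With the set term the sign turned for Bcl6 (-0.15) and Bach2 (0.059). With the set term and 1 library left out, a choice made after seeing the data, Bcl6 was at -0.080 without DMSO A, -0.36 without DMSO B, -0.15 without DMSO C, -0.17 without Cpd10 B and -0.18 without Cpd10 C. In the same order Bach2 was at 0.035, 0.24, 0.041, 0.13 and 0.042, and Mef2b turned to 0.075 without DMSO C and 0.38 without Cpd10 A. Without Cpd10 A the sign of Bcl6 (0.066) and Bach2 (-0.13) did not turn. Without Cpd10 A, set 1 held DMSO libraries only, so that comparison rests on set 2. Irf5 turned to 0.054 with the set term and ran from -0.18 to 0.027 with 1 library left out, and Irf7 from -0.31 to 0.080. All of these values missed the threshold.

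With the replicate block 49 genes were called, 40 higher and 9 lower, and 0 of the 10 regulators. The letters did not pair the libraries: deviations from the group means correlated at 0.31, 0.43 and -0.31 for letters A, B and C, and Cpd10 A correlated best with DMSO C. Depth did not limit the regulators, which had at least 489 counts in every library.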
